A study of Homo sapiens with 60 samples.

Results

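Transcripts of 9 intermediate filament genes were followed in SW1783 cells, a human astrocytoma line, after wortmannin or water extracts of 6 medicinal herbs. The genes were VIM, NES, GFAP, KRT7, KRT8, KRT18, KRT19, LMNA and LMNB1, found by their Ensembl identifiers among 60675 in the deposited table. A gene was described in full where its mean reached 1 CPM (read counts scaled to the library total) in any of the 20 treatment groups, and 7 of the 9 did. GFAP and KRT19 did not. The 9 members were listed by name.

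Cells stood for 24 h in L-15 medium with DMSO vehicle, with 10 µM wortmannin, which inhibits phosphatidylinositol 3-kinases and served as the positive control, or with an extract. Liriopis seu Ophiopogonis Tuber, Schisandrae Fructus, Longan Arillus, Zizyphi Semen and Aucklandiae Radix were given at 20, 100 and 500 µg/mL, and Polygalae Radix at 10, 50 and 250 µg/mL, called low, medium and high here. The series description says that an extract whose IC20 lay below the usual top dose was used at that IC20 and at dilutions of it. It does not say which response the IC20 refers to. Each group has n = 3 libraries, and no label says that they came from separate cultures, so each p-value reflects only the spread among these libraries, which may be technical. The labels give 0.1% DMSO for vehicle and the series description gives 2%, with no DMSO content given for treated libraries. Vehicle and wortmannin libraries each carry a library-name prefix of their own, and the herbs share prefixes in pairs (Liriopis with Schisandrae, Longan with Zizyphi, Polygalae with Aucklandiae). No label calls the prefix a batch, but prefix and treatment cannot be told apart in a comparison with vehicle, whereas doses of a herb share a prefix.

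Intermediate filaments are rope-like polymers of rod-shaped proteins that carry tension in the cytoplasm and line the inside of the nuclear envelope. Vimentin (VIM) and glial fibrillary acidic protein (GFAP) are type III proteins, nestin (NES) is type IV, and lamins A/C (LMNA) and B1 (LMNB1) form the nuclear lamina. Keratins assemble only as pairs of a type II chain (KRT7, KRT8) with a type I chain (KRT18, KRT19), and mark simple epithelia. In the astrocyte lineage nestin and vimentin are known for progenitors and reactive or tumour cells, and GFAP for mature and reactive astrocytes.

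The 250 bases before the RefSeq start (GRCh38.p14) are shown for the 4 expressed members with an entry near the annotated gene start. LMNA had 3 entries and LMNB1 had 2, and the entry nearest the annotated gene start is shown. Whether that entry serves the principal transcript was not checked. No link between these bases and the expression values was tested. KRT7 and KRT18 had no entry, and that of KRT8 lay away from the annotated start. Capitals mark GGGCGG (the GC box) on either strand and CCAAT on either strand, and these motifs do not overlap each other. VIM is chr10:17227991-17228240 on the plus strand, NES is chr1:156677408-156677657 on the minus strand, LMNA is chr1:156082323-156082572 on the plus strand and LMNB1 is chr5:126776373-126776622 on the plus strand.
VIM: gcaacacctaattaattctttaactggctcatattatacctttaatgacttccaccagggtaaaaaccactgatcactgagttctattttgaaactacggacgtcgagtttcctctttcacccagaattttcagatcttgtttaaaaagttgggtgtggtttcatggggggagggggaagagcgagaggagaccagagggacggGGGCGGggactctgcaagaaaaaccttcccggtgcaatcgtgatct
NES: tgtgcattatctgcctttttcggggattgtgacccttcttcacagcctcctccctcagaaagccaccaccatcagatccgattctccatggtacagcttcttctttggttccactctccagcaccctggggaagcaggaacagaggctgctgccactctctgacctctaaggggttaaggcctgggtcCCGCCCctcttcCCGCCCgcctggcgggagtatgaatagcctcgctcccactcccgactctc
LMNA: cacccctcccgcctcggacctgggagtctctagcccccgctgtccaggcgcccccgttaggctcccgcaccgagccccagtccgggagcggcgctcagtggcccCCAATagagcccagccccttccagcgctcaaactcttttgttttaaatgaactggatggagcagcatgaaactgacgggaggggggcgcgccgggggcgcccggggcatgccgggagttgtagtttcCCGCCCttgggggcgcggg
LMNB1: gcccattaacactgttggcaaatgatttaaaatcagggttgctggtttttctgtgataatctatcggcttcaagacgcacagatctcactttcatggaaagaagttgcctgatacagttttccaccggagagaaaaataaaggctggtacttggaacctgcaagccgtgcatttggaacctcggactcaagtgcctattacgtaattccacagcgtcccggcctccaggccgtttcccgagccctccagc
VIM held 1 GC box, whose first base lay 46 bases before the start. NES held 2 GC boxes and LMNA held 1, each printed as CCGCCC, with GGGCGG on the strand opposite to the gene. LMNA also held 1 CCAAT. LMNB1 held neither set of letters in this window. Of 35116 RefSeq promoters of the same length, 42.6% held GGGCGG and 32% held CCAAT. G and C made up 68.8% of the bases for LMNA, 58% for NES, 48.4% for LMNB1 and 46% for VIM.

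Total counts ran from 9342726 to 35351009 per library. Liriopis_high replicate 1 stood apart, with a mean correlation of 0.945 with its group, and it widens the spread that all comparisons share. Counts of called members that change without it are therefore given both ways. Of 11 astrocyte markers 5 reached 1 CPM in vehicle (SLC1A3, GJA1, SOX9, CD44 and ID3), while AQP4 had a vehicle mean of 0. GFAP, the defining astrocyte filament, had between 0 and 8 counts per library with a median of 3, which is at the limit of detection. All 10 fibroblast markers reached 1 CPM, as did 3 of 12 epithelial markers (MUC1, OCLN and CLDN4). EPCAM, a defining epithelial marker, had a mean of 0.0621 CPM.

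Vimentin was the most abundant member in vehicle. VIM (ENSG00000026025, GRCh38 chromosome 10, 17228259 to 17237593, plus strand) had 4832, 4756 and 4768 CPM in the 3 vehicle libraries. Divided by the length of the principal transcript, so that genes can be compared, its vehicle level was 2241 ± 19.3 CPM per kb (SD, n = 3), which is 77.4% ± 0.491 of the summed level of the 9 genes. KRT7 followed with 368 ± 18.2 CPM per kb, then LMNA with 163 ± 2.44, KRT18 with 78.8 ± 4.58 and LMNB1 with 37.3 ± 1.24. KRT8 stood at 7.16 ± 0.893 and NES at 1.3 ± 0.152 CPM per kb. These 7 levels were separated by more than their SD at every step. KRT19 (0.233 ± 0.101 CPM per kb) and GFAP (0.0226 ± 0.00949) came last. KRT7 thus stood at 4.67 ± 0.181 times the level of KRT18, its most abundant type I partner among the members.

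**Figure D1:**
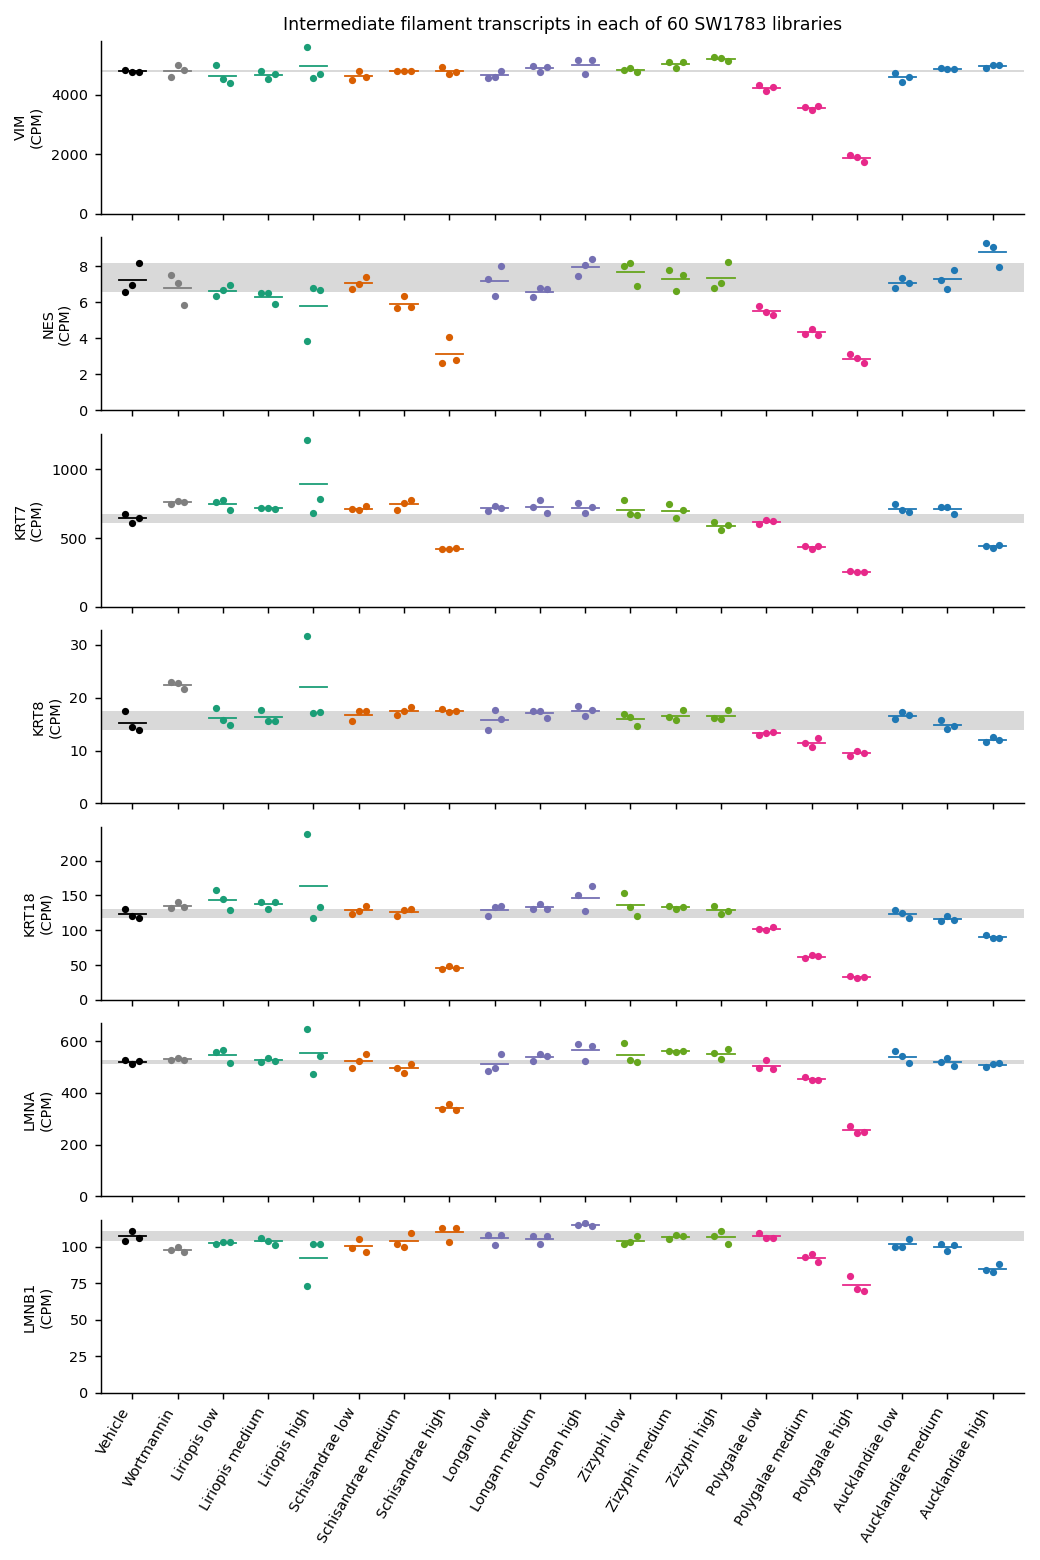
CPM of the 7 expressed members (7 panels, linear axes from 0) in each of 60 libraries, 3 points per group with a line at the mean and a grey band over the range of the vehicle libraries. All 7 fall below the band at medium and high Polygalae, and KRT18 (44.2 to 49 CPM), NES, KRT7 and LMNA fall below it at high Schisandrae. Liriopis_high replicate 1 lies away from the other libraries of its group.

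All 7 expressed members had lower means than vehicle with Polygalae Radix at the medium dose. Their means were lower again at the high dose, a step that was not tested. At 250 µg/mL all 7 fell against vehicle, where 22.9% of the 17792 tested genes were called lower (adjusted p under 0.05), and all 7 fell against the low dose, where 18.3% were. At 50 µg/mL all 7 fell against vehicle (14.9% of tested genes lower), and 4 of 7 (VIM, KRT7, KRT18 and LMNB1) against the low dose (5.7%). Without Liriopis_high replicate 1 that last count was 6, adding NES (log2 -0.34, adjusted p = 0.021) and LMNA (-0.15, adjusted p = 0.031). Calls over all genes, in either direction, went there from 1945 to 3653. At 10 µg/mL 1 of 7 fell, VIM, where 3.46% of tested genes did, and without Liriopis_high replicate 1 it was 3 of 7 (VIM, NES and KRT18). For that dose calls over all genes, in either direction, went from 1150 to 2512. The members' median log2 fold change against vehicle was -0.18, -0.43 and -1.32 from low to high dose, beside 0.00, 0.01 and 0.02 over all tested genes. The comparisons with vehicle share the same 3 vehicle libraries. In such bulk samples, fewer cells of a type and less RNA per cell cannot be told apart.

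Vimentin, the main cytoplasmic filament of mesenchymal cells, fell stepwise. VIM had 1968, 1908 and 1744 CPM at high Polygalae, 3571, 3485 and 3600 at medium and 4308, 4113 and 4243 at low Polygalae. The 4 ranges, vehicle included, do not overlap and descend with dose. The log2 fold change of VIM against vehicle was -0.18 (SE 0.05, adjusted p = 0.02), -0.43 (SE 0.05, adjusted p = 2.8e-09) and -1.35 (SE 0.05, adjusted p = 4.5e-26). Between high and low dose it was -1.17 (SE 0.05, adjusted p = 2.7e-23). The low-dose call is near the threshold: it ended without any 1 of Polygalae_low replicates 2 or 3 or of the 3 Vehicle libraries (adjusted p = 0.085, 0.064, 0.07, 0.052 and 0.056), each at a log2 fold change of -0.16 to -0.19. VIM was not called against vehicle in any of the 16 other treatments, whose means lay between 4584 (Aucklandiae_low) and 5198 CPM (Zizyphi_high).

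Nestin, a filament of neural progenitors that copolymerises with vimentin, was a low transcript here, with 57 to 269 counts per library. NES (ENSG00000132688, chromosome 1, 156668763 to 156677397, minus strand) had 6.57, 6.95 and 8.19 CPM in vehicle and 3.13, 2.9 and 2.61 at high Polygalae (log2 -1.32, SE 0.14, adjusted p = 2.3e-11). The medium dose gave 4.26, 4.54 and 4.2 CPM (log2 -0.74, SE 0.13, adjusted p = 9.5e-06). The medium range lies below vehicle, and the high range below the medium one. At the low dose the NES libraries also lay below vehicle (5.78, 5.48 and 5.29 CPM) with an adjusted p of 0.053, which became 0.007 without Liriopis_high replicate 1 and 0.047 without Vehicle replicate 1. Of 8 listed neural progenitor markers 2 were tested at high Polygalae, of which PAX6, a transcription factor, rose (log2 0.60, SE 0.07, adjusted p = 9.9e-11).

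Keratins 7 and 18 are the type II and type I chains with the highest levels here. KRT18 (ENSG00000111057, chromosome 12, 52948871 to 52952901, plus strand) had 131, 120 and 118 CPM in vehicle, 59.7, 64.6 and 62.6 at medium Polygalae and 34.8, 31.5 and 33.3 at high Polygalae. KRT18 had the largest fold change of the 7 members at both doses, with log2 values of -0.98 (SE 0.12, adjusted p = 7e-09) and -1.89 (SE 0.13, adjusted p = 2.1e-17). At the low dose KRT18 lay below vehicle without overlap at 102, 99.6 and 104 CPM (log2 -0.27, adjusted p = 0.2), and was called without Liriopis_high replicate 1 (adjusted p = 0.0047). KRT7 (ENSG00000135480, chromosome 12, 52232520 to 52252186, plus strand) had 677, 613 and 647 CPM in vehicle, 442, 418 and 446 at medium Polygalae and 262, 257 and 251 at high Polygalae. Its log2 fold changes were -0.57 (SE 0.09, adjusted p = 3.7e-06) and -1.33 (SE 0.1, adjusted p = 2.6e-16), with no overlap of the ranges. At the low dose KRT7 overlapped vehicle (603 to 633 CPM).

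Keratin 8, the usual partner of keratin 18, fell less. KRT8 (ENSG00000170421, chromosome 12, 52897187 to 52949954, minus strand) had 17.4, 14.4 and 13.9 CPM in vehicle and 8.97, 9.85 and 9.62 at high Polygalae (log2 -0.69, SE 0.12, adjusted p = 9.6e-06). The medium dose gave 11.5, 10.6 and 12.4 CPM (log2 -0.40, SE 0.12, adjusted p = 0.0084), a call that ended without Vehicle replicate 1 (log2 -0.30, adjusted p = 0.099). These values may depend on how reads of KRT8 and its pseudogenes were divided, which was not tested. Counts given to a pseudogene need not be reads of KRT8. The table holds 51 KRT8 pseudogenes, and their part of the KRT8 family counts was 22.8% ± 2.88 in vehicle and 40.2% ± 0.558 at high Polygalae (SD, n = 3). With the pseudogene counts added to KRT8, the log2 fold change at high Polygalae was -0.31 (SE 0.10, adjusted p = 0.0066) against vehicle and -0.18 (adjusted p = 0.15) against the low dose, where the gene alone gave -0.49 (adjusted p = 0.0016).

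The 2 nuclear lamins also fell, lamin A/C by more than lamin B1. LMNA (ENSG00000160789, chromosome 1, 156082573 to 156140089, plus strand) had 529, 513 and 522 CPM in vehicle, 461, 452 and 452 at medium Polygalae and 273, 246 and 251 at high Polygalae. Its log2 fold changes were -0.20 (SE 0.06, adjusted p = 0.015) and -1.02 (SE 0.06, adjusted p = 4.3e-18). The counts are per gene, so lamin A and lamin C, splice forms of LMNA, are not separated. LMNB1 (ENSG00000113368, chromosome 5, 126776623 to 126837020, plus strand), the B-type lamin bound to the inner nuclear membrane, had 104, 111 and 106 CPM in vehicle, 92.9, 95.2 and 89.3 at medium Polygalae and 79.7, 71 and 69.9 at high Polygalae. The log2 fold changes of LMNB1 were -0.21 (SE 0.06, adjusted p = 0.0075) and -0.54 (SE 0.06, adjusted p = 8.1e-10). At the low dose both lamins overlapped vehicle, with log2 values of -0.05 for LMNA and -0.01 for LMNB1. The fall of LMNB1 from low to medium dose (log2 -0.21, adjusted p = 0.023) ended without any 1 of Polygalae_low replicates 1 or 2 or Polygalae_medium replicates 1 or 3 (adjusted p = 0.097, 0.05, 0.063 and 0.11). With no filter on low counts it was 0.15, and that of LMNA at medium dose against vehicle was 0.066.

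**Figure D2:**
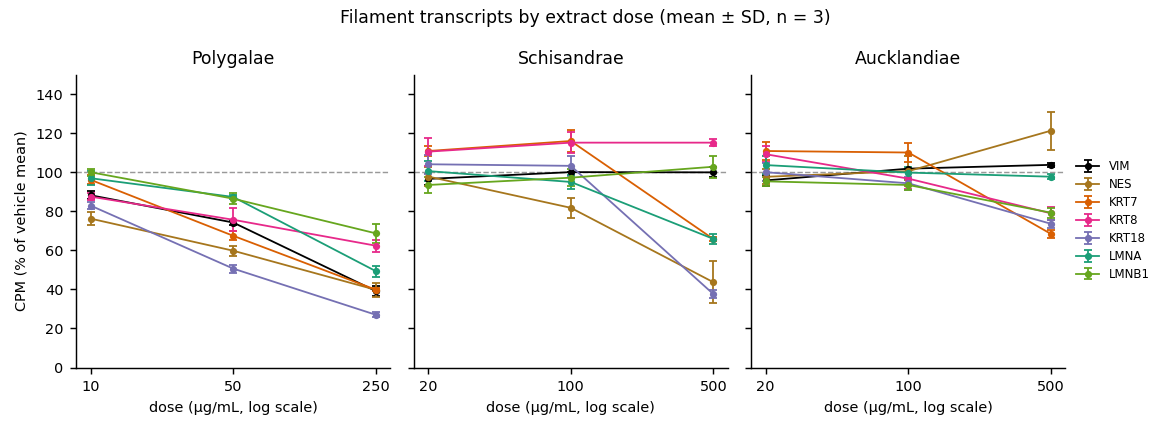
CPM as a percentage of the vehicle mean (mean ± SD, n = 3, linear axis) against dose on a log axis, for the 7 members in 3 extracts; the dashed line is the vehicle mean. With Polygalae all lines descend over 10, 50 and 250 µg/mL, whereas with Schisandrae and Aucklandiae falls were called only at 500 µg/mL. High against medium dose was not tested.

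Filament partners and other cytoskeletal genes were measured in the same libraries, where 22.9% of all tested genes were called lower and 23.1% higher. The lamin partners lay near those shares. At high Polygalae against vehicle, 8 of 17 tested genes of the filament linkers and plakins list fell and 1 rose (median log2 -0.34). They included PLEC, which encodes plectin, the linker of filaments to actin and adhesions, at -1.41 (SE 0.13, adjusted p = 7e-13), FLNA (filamin A) at -1.78 (SE 0.14, adjusted p = 1e-14) and PPL (periplakin) at -2.28 (SE 0.21, adjusted p = 1.4e-12). Of 21 tested lamin partners and processing genes 6 fell and 4 rose (median log2 -0.04). TMEM43 (-0.72, adjusted p = 1.1e-20) and SUN2 (-0.84, adjusted p = 9.1e-14), both of the nuclear envelope, fell and LEMD2 rose (0.43, adjusted p = 1.6e-08). Of 22 actin cytoskeleton genes 19 fell and none rose (median log2 -0.56), among them MYH9, a non-muscle myosin heavy chain, at -1.87 (SE 0.15, adjusted p = 1.2e-14). Of 12 tubulins 10 fell and none rose (median log2 -0.47), and of 16 filament kinases 8 fell and none rose (median log2 -0.18). Of 12 tested genes of the EMT (epithelial to mesenchymal transition) list, to which vimentin is often added, 8 fell and 3 rose (median log2 -0.52), with FN1 (fibronectin) at -2.10 (adjusted p = 9e-14). The list did not move as a whole. SNAI2 rose against the low dose from 87 to 130 CPM (log2 0.58, adjusted p = 1.5e-09), and ZEB2 had a mean of 29.5 CPM against 15.7 in vehicle. The median over all tested genes was 0.02.

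Several other measures moved with high Polygalae. The summed level of the 10 fibroblast markers was 1511 to 1628 CPM per library against 6231 to 6504 in vehicle, with 9 of 10 called lower and none at 0. The 12 epithelial markers summed to 9.32 to 9.88 CPM against 11.3 to 11.9, and the 11 astrocyte markers to 2358 to 2497 against 3220 to 3437. CD44 alone made up 2815 of the mean 3355 CPM of the astrocyte sum in vehicle. The astrocyte markers did not move together. CD44 (log2 -0.72, adjusted p = 1.6e-12) and SLC1A3 (-0.87, adjusted p = 9.3e-08) fell, while ID3 rose from 223 to 407 CPM (0.87, adjusted p = 2.7e-06). The mitochondrial share of counts was 12.4% to 13.4% against 10.3% to 10.6%, and the TMM scaling factors were 1.08 to 1.12 against 0.977 to 0.984. The part of all these measures in the fall of the filament genes was not tested. With median-of-ratios size factors in place of TMM, all 7 members were called lower as before.

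Schisandrae Fructus at 500 µg/mL lowered 4 of the 7 genes, NES, KRT7, KRT18 and LMNA, against vehicle (25.6% of tested genes called lower) and the same 4 against its low dose (24.8%). KRT18 had 44.2, 49 and 45.5 CPM, far below vehicle (log2 -1.41, SE 0.12, adjusted p = 1.7e-13). NES had 2.63, 4.06 and 2.79 CPM (log2 -1.20, SE 0.14, adjusted p = 4.1e-10). KRT7 had 418, 424 and 430 CPM (log2 -0.61, SE 0.09, adjusted p = 4.3e-07) and LMNA had 339, 358 and 333 CPM (log2 -0.60, SE 0.06, adjusted p = 6e-11). None of these ranges overlaps vehicle. The share of all tested genes whose ranges lie apart from vehicle was not counted, in this or any other treatment. Such ranges therefore describe single genes only. The members' median log2 fold change was -0.60 against 0.00 over all tested genes.

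The other 3 members were not lower with this extract. VIM had 4913, 4678 and 4751 CPM (log2 0.00, 95% confidence interval -0.10 to 0.10) and LMNB1 had 113, 103 and 113 CPM (log2 0.03, interval -0.09 to 0.16), both overlapping vehicle. KRT8 had 17.8, 17.3 and 17.5 CPM (log2 0.20, interval -0.04 to 0.45, adjusted p = 0.16). KRT8 was called higher without Liriopis_high replicate 1 (log2 0.20, adjusted p = 0.02) and with its pseudogenes added (log2 0.33, adjusted p = 0.0034). Without that library LMNB1 was also called higher against the low dose (log2 0.13, adjusted p = 0.0078). Against Liriopis seu Ophiopogonis Tuber at the same 500 µg/mL and prefix, Schisandrae gave 5 lower and 1 higher of 7, where 59.7% of tested genes were called. Without Liriopis_high replicate 1, KRT18 (log2 -1.44), NES (-1.11), KRT7 (-0.79) and LMNA (-0.57) stayed lower and LMNB1 just passed as higher (0.11, adjusted p = 0.05), while KRT8 turned from -0.31 to 0.03 (adjusted p = 0.77).

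**Figure D3:**
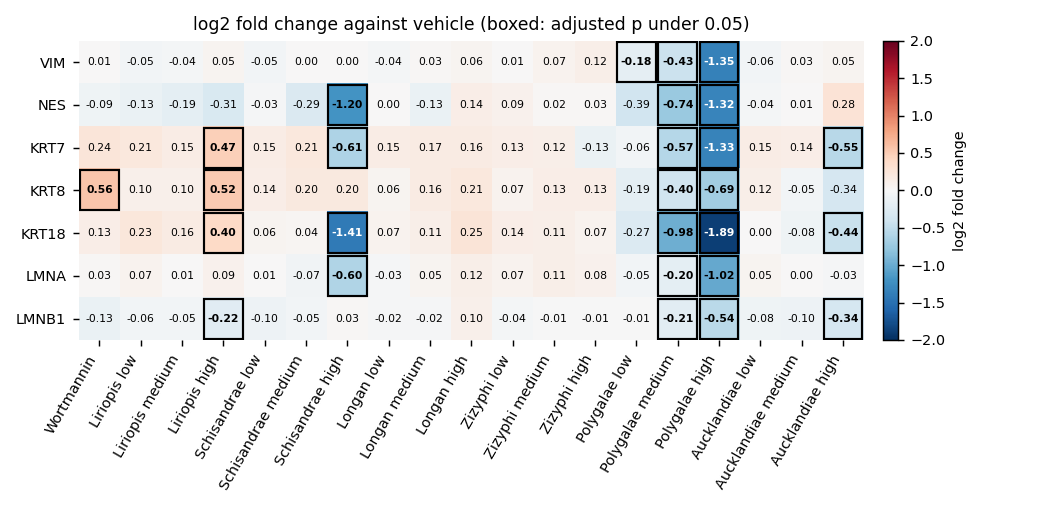
log2 fold change against vehicle of the 7 members (rows) in 19 treatment groups (columns), as colour and number; boxed bold cells have an adjusted p under 0.05. The boxed falls lie in the Polygalae columns, in Schisandrae high and in Aucklandiae high, and the Liriopis high boxes rest on replicate 1.

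Within libraries, the balance between chains of a pair differed from vehicle with these extracts, and by less with several other treatments. The KRT7 to KRT18 ratio, from CPM per kb, was 4.59, 4.55 and 4.88 in vehicle, 8.42, 7.72 and 8.41 at high Schisandrae and 6.71, 7.26 and 6.71 at high Polygalae. Both treated ranges lie above vehicle. So do those of Wortmannin (4.9 to 5.14), Schisandrae_medium (5.24 to 5.27), Polygalae_low (5.25 to 5.66) and Polygalae_medium (5.76 to 6.59). Aucklandiae_low (5.08 to 5.24) and Aucklandiae_medium (5.24 to 5.7) also lie above, while Aucklandiae_high (4.23 to 4.52) and Zizyphi_high (4.04 to 4.14) lie below. Schisandrae_low had 5.13, 4.92 and 4.84. The KRT8 to KRT18 ratio was 0.0906 ± 0.00589 in vehicle, 0.279 ± 0.0185 at high Schisandrae and 0.21 ± 0.0203 at high Polygalae (SD, n = 3), without overlap. Its range also lay above vehicle for Wortmannin (0.119 to 0.128), Schisandrae_medium (0.0998 to 0.103) and Polygalae_medium (0.121 to 0.145). The LMNA to LMNB1 ratio was 4.57, 4.16 and 4.43 in vehicle, 2.71, 3.14 and 2.65 at high Schisandrae, 3.09, 3.13 and 3.24 at high Polygalae and 5.41, 5.56 and 5.27 at high Aucklandiae. Relative to lamin B1, lamin A/C transcript was thus lower with Schisandrae and Polygalae and higher with Aucklandiae. Wortmannin (4.84 to 4.97) and Zizyphi_medium (4.67 to 4.84) also lay above vehicle. VIM relative to the 4 keratins was 4.94 ± 0.204 in vehicle, 8 ± 0.309 at high Schisandrae, 7.38 ± 0.207 at high Aucklandiae and 5.09 ± 0.226 at high Polygalae. These ratios are descriptions with no test.

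**Figure D4:**
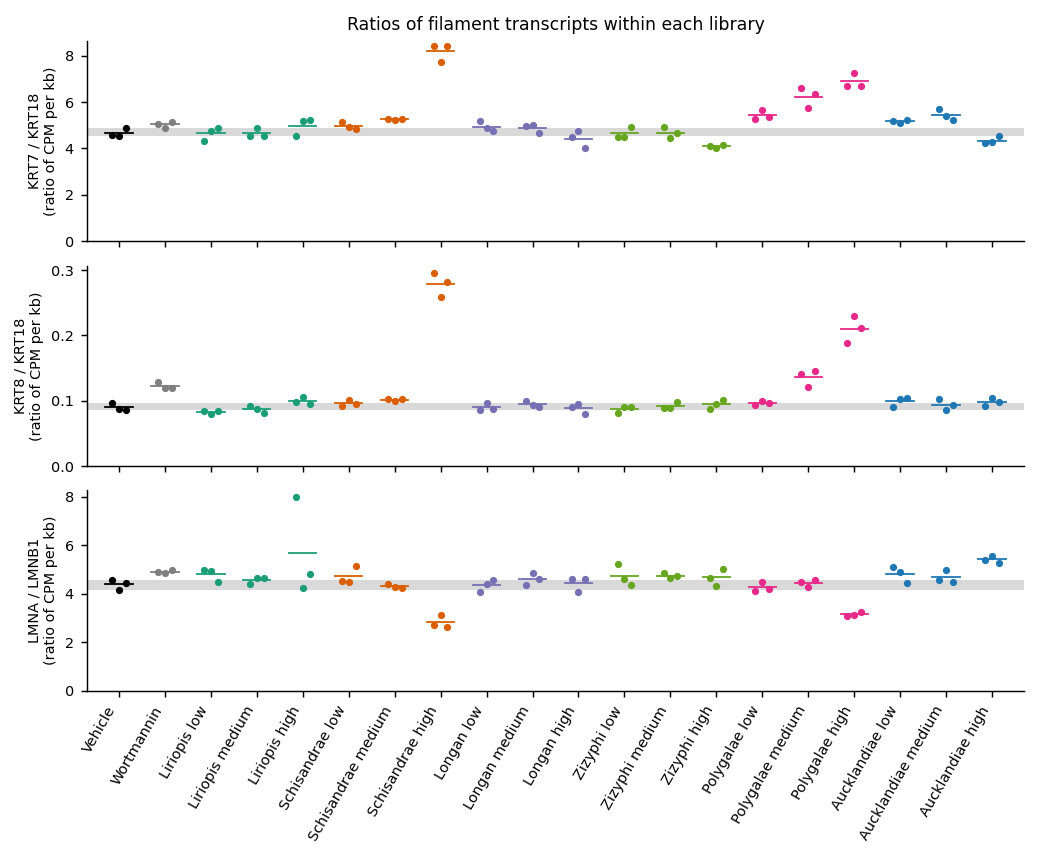
Ratios of CPM per kb of KRT7 to KRT18, KRT8 to KRT18 and LMNA to LMNB1 in each of 60 libraries (linear axes from 0, line at the group mean, grey band over the vehicle range). Both keratin ratios are highest at Schisandrae high, and the lamin ratio has its lowest mean there, 2.83.

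Aucklandiae Radix at 500 µg/mL lowered KRT7, KRT18 and LMNB1 against vehicle (3 of 7, where 6.69% of tested genes were lower), and these 3 and KRT8 against its low dose (4 of 7, where 5.3% were). KRT7 had 443, 428 and 452 CPM (log2 -0.55, SE 0.09, adjusted p = 2.1e-05), KRT18 had 93.3, 89.2 and 89 CPM (log2 -0.44, SE 0.12, adjusted p = 0.0073) and LMNB1 had 83.7, 82.9 and 88 CPM (log2 -0.34, SE 0.06, adjusted p = 0.00011). All 3 ranges lie below vehicle, which was likewise not counted over all tested genes. KRT8 had 11.6, 12.6 and 11.9 CPM, also below vehicle (log2 -0.34, adjusted p = 0.059, or 0.048 without Vehicle replicate 3), and fell against the low dose (log2 -0.46, SE 0.12, adjusted p = 0.0085). With pseudogenes added, KRT8 gave -0.14 (adjusted p = 0.43) and -0.22 (adjusted p = 0.15), and the pseudogene part was 32.6% ± 1.52 of the family counts. LMNA (log2 -0.03) and VIM (log2 0.05) were not called against vehicle. NES had its highest group mean here, with 9.29, 9.07 and 7.98 CPM overlapping vehicle (log2 0.28, SE 0.12, adjusted p = 0.13).

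Leaving out Liriopis_high replicate 1 raised the count for Aucklandiae_high against vehicle from 3 to 5, adding KRT8 (adjusted p = 0.00085) and a rise of NES (log2 0.28, adjusted p = 0.028). Against the low dose it rose from 4 to 6, adding rises of NES (log2 0.32, adjusted p = 0.018) and VIM (log2 0.12, adjusted p = 0.03). Over all genes, calls in either direction went from 2353 to 4126 against vehicle and from 1890 to 3489 against the low dose. Fibroblast markers were lower here too, with 9 of 10 called lower and a sum of 3718 to 3807 CPM per library against 6231 to 6504. Their part in these changes was not tested.

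Wortmannin raised KRT8 and called no other member, where 5.45% of tested genes were higher. KRT8 had 22.9, 22.7 and 21.7 CPM, above all vehicle libraries (log2 0.56, SE 0.12, adjusted p = 0.00063), and 0.47 (SE 0.09, adjusted p = 0.00036) with pseudogenes added. KRT7 had 747, 769 and 765 CPM, also above vehicle without overlap (log2 0.24, SE 0.09, adjusted p = 0.093), and LMNB1 had 97.6, 99.8 and 96.1 CPM, below vehicle (log2 -0.13, SE 0.06, adjusted p = 0.19). Without Liriopis_high replicate 1 both were called (KRT7 0.24, adjusted p = 0.00065, and LMNB1 -0.13, adjusted p = 0.017). Calls over all genes, in either direction, went from 2129 to 4108. VIM (log2 0.01, interval -0.10 to 0.11) and LMNA (log2 0.03, interval -0.10 to 0.16) overlapped vehicle.

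Liriopis seu Ophiopogonis Tuber at 500 µg/mL called KRT7, KRT8 and KRT18 higher and LMNB1 lower against vehicle (4 of 7, where 34% of tested genes were called). Against its low dose KRT8 was called higher (1 of 7, where 11.8% of tested genes were). These calls rest on 1 library. KRT7 had 1211, 681 and 784 CPM, KRT18 238, 117 and 134, KRT8 31.6, 17 and 17.2, and LMNB1 73.2, 102 and 102, with replicate 1 first. Without it the log2 fold changes against vehicle were 0.19, 0.03, 0.17 and -0.08 in that order, and no member was called in either comparison. Without replicate 2 in its place, 6 members were called against vehicle and 5 against the low dose. Replicate 1 weighs more in that fit, and its calls over all genes are not given. Those counts are therefore no result about the members. Without Vehicle replicate 3 the KRT18 call ended (adjusted p = 0.055), without Vehicle replicate 2 that of LMNB1 (0.052), and without Liriopis_low replicate 2 or 3 that of KRT8 against the low dose (0.091 and 0.086).

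In the other 20 comparisons no member was called by edgeR. These were Liriopis, Schisandrae, Longan, Zizyphi and Aucklandiae at low and medium dose, Longan and Zizyphi at high dose, the medium against low doses of all 5, the high against low doses of Longan and Zizyphi, and Zizyphi_high against Longan_high. Of 140 gene tests 11 had an unadjusted p under 0.05, and DESeq2 also called 0. Among all 17792 tested genes, 260 (Longan_medium against Longan_low) to 2288 (Longan_high against vehicle) had such a p in a comparison. The 11 are therefore not read as a result about the members. Few genes of any kind were called there. Against vehicle, the called share of tested genes was 0.00562% for Liriopis_low, Longan_low and Aucklandiae_low, 0% for Schisandrae_low and Zizyphi_low, 0.0112% for Liriopis_medium, 0.0281% for Longan_medium and 0.0393% for Zizyphi_medium. It was 0.455% for Aucklandiae_medium, 1.02% for Schisandrae_medium, 0.843% for Longan_high and 0.607% for Zizyphi_high. Between medium and low dose it was 0% for Liriopis and Longan, 0.0112% for Zizyphi, 0.0169% for Aucklandiae and 0.332% for Schisandrae. Between high and low dose it was 0.247% for Longan and 0.674% for Zizyphi, and it was 1.01% between those 2 extracts at high dose.

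At 500 µg/mL Longan Arillus gave 754, 680 and 730 CPM of KRT7 and 150, 127 and 163 of KRT18, and Zizyphi Semen gave 620, 557 and 597 of KRT7 and 135, 123 and 128 of KRT18. The Zizyphi libraries of KRT7 lay below all Longan libraries (log2 -0.29, SE 0.09, adjusted p = 0.19). Without Liriopis_high replicate 1, KRT7 was called in that comparison (log2 -0.29, adjusted p = 0.00047) and at Zizyphi high against low dose (-0.25, adjusted p = 0.0028). Against vehicle it was called at Longan_high (0.17, adjusted p = 0.048), with KRT18 (0.26, adjusted p = 0.013), and at Schisandrae_medium (0.22, adjusted p = 0.011). Against the low dose of the same herb none of these was called. KRT7 gave 0.01 (adjusted p = 0.94) for Longan_high and 0.06 (adjusted p = 0.68) for Schisandrae_medium, and KRT18 gave 0.18 (adjusted p = 0.16). At low dose KRT7 lay 0.13 to 0.22 above vehicle, uncalled, in every herb but Polygalae (-0.06).

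GFAP and KRT19 stayed near the limit of detection in every group. GFAP (ENSG00000131095, chromosome 17, 44903161 to 44916937, minus strand) had its highest group mean at high Schisandrae, with 0.339, 0.245 and 0.218 CPM, against 0.219, 0.108 and 0.116 in vehicle. KRT19 (ENSG00000171345, chromosome 17, 41523617 to 41528308, minus strand), a keratin 7 and 8 partner in simple epithelia, had 0 to 16 counts per library with a median of 8. Its group means ran from 0.0782 CPM at high Polygalae to 0.495 CPM at medium Schisandrae, against 0.323 in vehicle. The KRT19 libraries at high Polygalae (0.0316, 0.111 and 0.0916 CPM) lay below those of vehicle (0.183, 0.324 and 0.464 CPM). Neither gene met the 1 CPM rule, so their levels are given with no test.

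Other filament genes did not all follow the 7. Of 53 listed, 14 were tested. Over all tested genes, 25.3% were called higher and 25.6% lower at high Schisandrae, 23.1% and 22.9% at high Polygalae, and 6.54% and 6.69% at high Aucklandiae. At high Schisandrae 5 of the 14 rose and 3 fell (median log2 0.59), at high Polygalae 2 rose and 5 fell (-0.32), and at high Aucklandiae 1 rose and 4 fell (0.05). KRT81, a hair keratin, went from 110 to 201 CPM at high Schisandrae (log2 0.87, SE 0.15, adjusted p = 4.6e-06) and KRT10, a type I keratin of suprabasal epidermis, from 36 to 59.9 (0.74, SE 0.14, adjusted p = 2.2e-05). SYNM, which encodes synemin, a partner of vimentin, fell from 13.7 to 7.65 CPM (-0.84, SE 0.12, adjusted p = 8.4e-08). Hair keratins have near-identical copies such as KRT86, so the counting may have divided their reads.

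At high Polygalae KRT80 fell from 46.1 to 15.2 CPM (log2 -1.60, SE 0.07, adjusted p = 2.1e-24), KRT81 to 52.2 (-1.07, SE 0.16, adjusted p = 1.1e-07) and LMNB2, the second B-type lamin, from 184 to 139 (-0.40, SE 0.09, adjusted p = 0.00016). At high Aucklandiae KRT15, a type I keratin of basal epithelia, rose from 2.77 to 5.53 CPM (1.00, SE 0.13, adjusted p = 4.3e-08), whereas KRT80 (-0.37, adjusted p = 2.3e-05) and SYNM (-0.51, adjusted p = 0.0013) fell. KRT15, looked up in the other extracts after its values were seen, fell at high Polygalae (-1.36, SE 0.15, adjusted p = 1.7e-10) and rose at high Schisandrae (0.73, SE 0.13, adjusted p = 5.6e-06). KRT81 and KRT15 thus differed in sign between Schisandrae and Polygalae, but that difference between extracts of different prefixes was not tested.

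**Figure D5:**
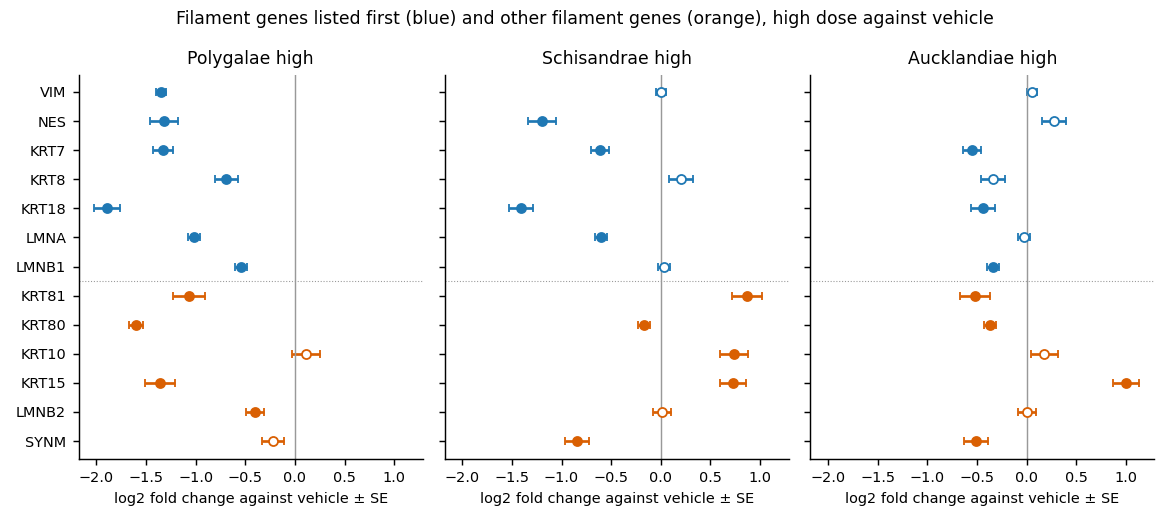
log2 fold change against vehicle ± SE (horizontal) of the 7 members (blue) and 6 other filament genes (orange) at the high dose of 3 extracts; filled points have an adjusted p under 0.05 and open points do not. KRT81, KRT10 and KRT15 lie right of 0 at Schisandrae high, while KRT18 and NES lie left of it in the same libraries.

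At high Schisandrae 25.6% of all tested genes were called lower and 25.3% higher, which the counts of linker, lamina and actin genes are to be read against. Of 17 linkers and plakins 3 fell and 1 rose (median log2 -0.13), with PPL at -1.77 (adjusted p = 7.3e-10) and PLEC at -0.59 (adjusted p = 0.00012). Of 21 lamin partners and processing genes 8 rose and 6 fell, with FNTA, a farnesyltransferase subunit that acts in lamin processing, at 0.63 (adjusted p = 1.4e-14) and LEMD2 at 0.57 (adjusted p = 8.8e-12). Of 22 actin genes 12 fell and none rose (median log2 -0.33), led by ACTG1 at -0.93 (adjusted p = 3.7e-19) and ACTA2 at -1.01 (adjusted p = 3.9e-16). Of 7 tested astrocyte markers 6 fell, among them SLC1A3, a glutamate transporter, at -1.61 (adjusted p = 2.4e-14), and of 10 fibroblast markers 8 fell and 1 rose. The summed astrocyte markers were 2063 to 2156 CPM per library against 3220 to 3437 in vehicle, and of 4 tested epithelial markers CLDN4, a tight-junction protein, rose from 2.43 to 6.29 CPM (1.37, adjusted p = 1.9e-11) and 1 fell. The part of these marker changes in the fall of the filament genes was not tested. Of the 12 EMT genes 4 rose and 4 fell. SNAI2 fell (-0.98, adjusted p = 3.6e-16) and ZEB1 rose (0.83, adjusted p = 1.2e-11), both transcription factors.

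Near-copies and antisense partners bear on single members. KRT8 and KRT18 overlap head to head over 1084 bases on opposite strands, and whether the counting used strand is not given in the sources used here, although the kit is directional. Of 100-base windows of the principal KRT8 transcript, 5.92% occur unchanged in transcripts of other genes, and none do for the other 8 members. Those genes are the pseudogenes KRT8P3, KRT8P33, KRT8P45 and KRT8P10. KRT8P12 and KRT8P47, the KRT8 pseudogenes with the most counts, hold none of these windows. KRT8P47, a processed pseudogene, had 1.15 ± 0.0891 CPM in vehicle, 4.52 ± 0.326 at high Schisandrae and 0.167 ± 0.145 at high Polygalae (SD, n = 3). KRT8P12 had 1.94 ± 0.294, 1.27 ± 0.363 and 3.68 ± 0.0964 CPM in the same groups. The antisense gene KRT7-AS had 7.04 ± 0.778 CPM in vehicle, 13.5 ± 2.34 at high Schisandrae and 3.7 ± 0.775 at high Polygalae, so it lay above vehicle where KRT7 fell in the first extract and below it in the second. KRT18 pseudogenes, 67 in number, held 0.625% to 4.93% of that family's counts.

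Over the 20 group means, KRT7 and KRT18 had the closest log2 CPM profiles of any pair of members (Pearson r = 0.948), followed by KRT18 and LMNA (0.944). NES and KRT8 had the least alike (0.374). Without high Polygalae and high Schisandrae, r was 0.889 for KRT7 with KRT18 and 0.838 for KRT18 with LMNA, whereas NES with KRT7 went from 0.695 to 0.106, NES with KRT18 from 0.853 to 0.44 and VIM with LMNB1 from 0.739 to 0.227. Liriopis_high stayed in, where replicate 1 had the highest KRT7 (1211 CPM), KRT18 (238) and LMNA (649) of its group. These r were not computed without that library. Among 13830 other protein-coding genes, the closest to VIM were SND1 (r = 0.983), PLOD3 (0.978) and UBA1 (0.977), and the closest to NES were TRIOBP (0.972), CD44 (0.971) and CLPTM1 (0.97). SHKBP1 came first for both KRT7 (0.965) and KRT18 (0.977), IGFBP4 for KRT8 (0.947), CAVIN1 for LMNA (0.981) and KIF20A for LMNB1 (0.93). These correlations are over 20 groups that share the fit and library depth, and are descriptions only.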

How the data were processed

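RNA was measured in 60 libraries of SW1783 cells, 20 groups of 3, taken from sample titles and treatment labels. The authors deposited a table of expected counts from RSEM 1.3.3, after FastQC 0.11.9, Trim Galore 0.6.5 and STAR 2.7.3a on GRCh38, per the submitters' processing notes. Its annotation release and strand setting: not given in the sources used here. Libraries came from a directional mRNA kit read in pairs of 100 bases, and samples with too little RNA were left out before deposit, per the labels' protocols and the series description. Some 11% of these deposited values were not whole numbers, and each was rounded. Symbols were found for 56558 identifiers, and GENCODE 29 gave positions and principal transcript lengths.

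The quasi-likelihood test of edgeR 4.0.16, under R 4.3.3, was fitted once to all 60 libraries by group, with TMM scaling and the expression filter (minimum count 10), leaving 17792 genes and 40 residual degrees of freedom. Calls were made where the p, adjusted by Benjamini and Hochberg's method over the tested genes of a comparison, was under 0.05, in 33 comparisons: 19 with vehicle, 12 of doses within a herb and 2 of herbs at matched dose. Every adjusted p is from edgeR unless another tool is named. KRT19 passed the count filter but not the 1 CPM rule, and was not counted. CPM values are TMM-scaled, and their precision follows from 9342726 to 35351009 counts per library, with a biological coefficient of variation of 8.72%.

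Members, lists, alternatives and the naming rule (the 9 members, and the 3 genes of each list with the smallest p, if called and at 5 CPM or more in the higher group) were chosen with earlier results of these data known. The test was tried on simulated counts. Alternatives were size factors, low-count filters, DESeq2 1.42.0, fits of 2 groups only, a replicate block, each replicate left out and pseudogene counts added.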

Additional observations from a re-analysis of the deposited data

How the results depend on the processing

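Of 53 calls of a member in a comparison, 35 of 696 values under the alternatives lost the call or turned. The turn was that of KRT8 between Schisandrae_high and Liriopis_high, 0.03 without Liriopis_high replicate 1 and -0.47 without replicate 3. The counts for Polygalae_high, Schisandrae_high and Aucklandiae_high against vehicle and against low dose stayed within 1.5 times under all alternatives other than that library. With only the 2 groups compared, the number of members called was 3 for Wortmannin, 0 for Liriopis_high, 1 for Schisandrae_medium and 3 for Polygalae_low against vehicle, 0 for Liriopis_high against low, 3 for Schisandrae_high against Liriopis_high and 1 for Zizyphi_high against Longan_high. Polygalae_low against vehicle gave 2 with DESeq2, 2 with the 1 CPM filter and 0 with no filter, and Liriopis_high against low gave 2 with DESeq2 and 2 with that filter. Calls over all genes can change with each fit and are not given for these settings. The counts are therefore no result about the members.

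With each replicate left out, or Liriopis_high replicate 1, counts ran from 1 to 3 for Wortmannin, 0 to 6 for Liriopis_high, 0 to 1 for Schisandrae_medium, 0 to 2 for Longan_high, 0 to 3 for Polygalae_low and 3 to 5 for Aucklandiae_high against vehicle. They ran from 0 to 5 for Liriopis_high and 0 to 1 for Zizyphi_high against low, 3 to 6 for Polygalae_medium against low, 5 to 6 for Schisandrae_high against Liriopis_high and 0 to 1 for Zizyphi_high against Longan_high. Of these fits, calls over all genes are given only for that without Liriopis_high replicate 1. The ranges describe the processing and are no result about the members. Without Liriopis_high replicate 1 the fit has a smaller spread. Calls over all genes then went from 150 to 1269 for Longan_high and from 182 to 842 for Schisandrae_medium against vehicle. They went from 120 to 518 for Zizyphi_high against low and from 180 to 508 for Zizyphi_high against Longan_high. For Liriopis_high against vehicle they fell from 6045 to 1. No label says whether libraries of the same replicate number were handled together. In no comparison did all 3 same-numbered pairs deviate together with r over 0.1, a rule that does not show whether handling was shared. With a replicate block 53 calls of members were made in all, as many as without it. Depth limits GFAP and KRT19, at 0 to 16 counts per library.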
